A study of Mus musculus with 66 samples.

Results

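The medial prefrontal cortex of C57BL/6J mice was compared 4 hours after an intraperitoneal injection of ethanol (1.8 g/kg) or saline. The comparison used the arrays whose titles name C57BL/6J with saline (3 arrays) or with ethanol (3 arrays), 6 of the 66 arrays of the series. All animals were males of 10 to 12 weeks, and the labels write the strain as C57BL6/J. Saline and ethanol mice alike were restrained for 15 minutes and then spent 10 minutes in a light-dark box, so the saline group is a stressed and tested control, not an untouched one. Each array carried RNA pooled from 4 to 5 animals. The p-values therefore measure the spread between pools, and the labels do not say which pools shared a batch. The other arrays were 6 of DBA/2J and 54 of the BXD recombinant inbred strains. Their values are given below only beside the C57BL/6J values, and the DBA/2J arrays also enter the estimate of spread in the fit.

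The question put by the design is which transcripts of the prefrontal cortex differ after an acute dose of ethanol. Activity-regulated genes are transcription factors and synaptic proteins that neurons switch on within minutes to hours of calcium entry, through kinases that act on CREB and on serum response factor at DNA elements close to the start of transcription. Glucocorticoid-responsive genes are switched on by the corticosterone-bound glucocorticoid receptor, and both ethanol and restraint are known to release corticosterone in mice. Ethanol also acts directly on GABA-A and NMDA receptors and on several potassium channels.

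Levels are log2 values, so a difference of 1 is a 2-fold change, and each gene is represented by the probe set with the highest mean over the series. Markers of cortical and neighbouring tissue were read beside the tissue label. The glutamatergic neuron gene Slc17a7 lay between 10.51 and 10.80 on the 6 arrays, the inhibitory neuron gene Gad1 between 11.11 and 11.52, and the myelin gene Mbp between 12.19 and 12.63. Of the 11 striatal markers 9 were measured, with a median level of 7.96, against 7.60 over all genes. Drd2, 1 of them, lay between 5.21 and 5.60, near the level of 5.10 below which genes were left out. Of the choroid plexus list 3 of 10 genes were measured. The choroid plexus marker Ttr lay between 6.24 and 6.70. Pairs of the 6 arrays correlated across probe sets at 0.993 to 0.997.

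Ethanol raised 1 gene in C57BL/6J at an adjusted p below 0.05, Npas4, out of 13196 tested (0.00758%). At an unadjusted p below 0.05 there were 657 genes (4.98% of those tested), 286 higher after ethanol (2.17%) and 371 lower (2.81%). The 3 ethanol arrays lay wholly above the 3 saline arrays for 499 genes (3.78%) and wholly below them for 801 (6.07%). With the genes cut by level into 4 bins of 3299, 188 of the 286 higher genes lay in the dimmest bin (levels 4.61 to 6.36) and 8 in the brightest. For the 371 lower genes these counts were 70 and 59. Of the 499 genes wholly above, 288 lay in the dimmest bin and 27 in the brightest. Without saline replicate 2 the unadjusted counts were 153 higher and 200 lower, and without ethanol replicate 3 they were 168 and 203. The differences were small: 15 genes differed by at least 0.5, and Npas4 alone by at least 1. The median over all genes was -0.02, and the median standard error of a difference was 0.10. An exact two-sided permutation test of 3 arrays against 3 cannot give a p below 0.10, so the tests given here are those of limma.

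**Figure D1:**
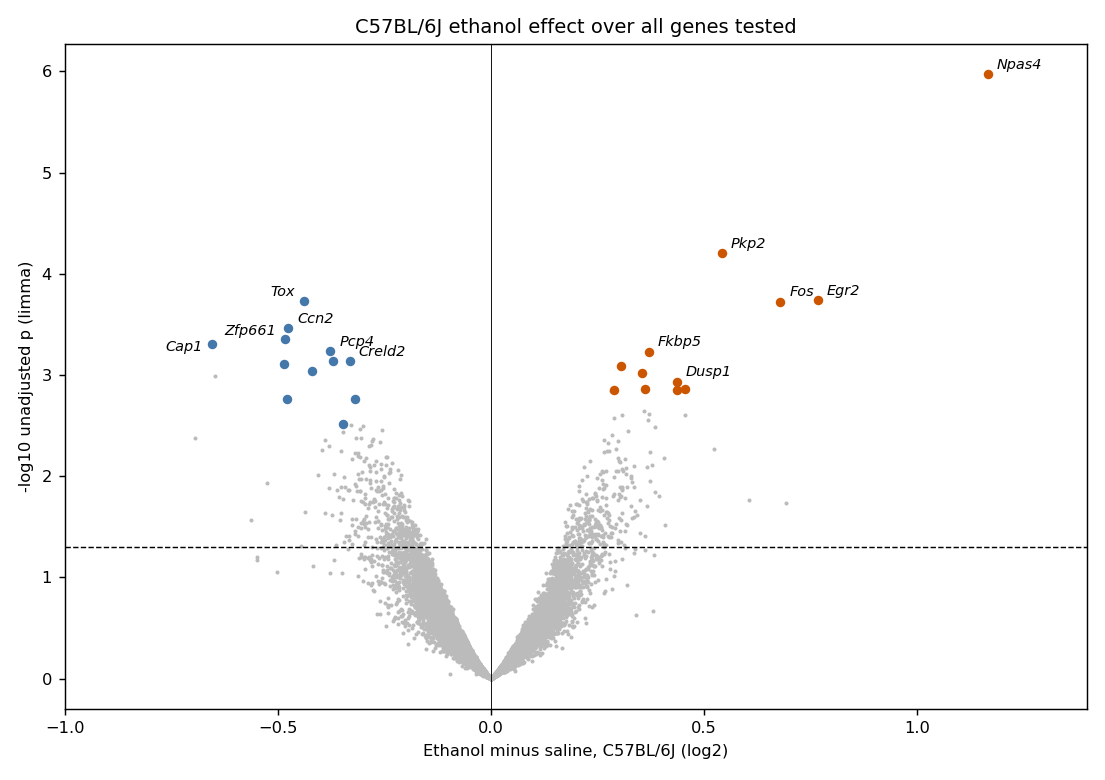
Ethanol minus saline in C57BL/6J (x axis, log2) against -log10 of the unadjusted limma p (y axis) for 13196 genes, with the dashed line at p = 0.05. Coloured points are the genes of smallest p whose arrays do not overlap, 12 in each direction; Npas4 stands alone at a difference of 1.17.

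The regulatory sequence next to Npas4, the gene that passed, is shown because activity-regulated genes carry recognisable elements there. Beside it are Fos, Egr2 and Dusp1, which did not pass and were picked by their known roles from the higher genes of smallest p. Pkp2 and Fkbp5, of smaller p than Dusp1, are not shown. Whether these genes share a response with Npas4 was not tested. The windows are the 250 bases before the annotated start, written in the direction of the gene, from RefSeq on GRCm38.p6. Capitals mark TGACG or its reverse complement CGTCA (the core of the CREB-binding element), the whole element TGACGTCA, the CArG box bound by serum response factor, and TATAAA. The windows lie at chr19:4989972-4990221 on the minus strand for Npas4, chr12:85473640-85473889 on the plus strand for Fos, chr10:67537619-67537868 on the plus strand for Egr2 (1 of its 5 annotated starts) and chr17:26508473-26508722 on the minus strand for Dusp1.
Npas4: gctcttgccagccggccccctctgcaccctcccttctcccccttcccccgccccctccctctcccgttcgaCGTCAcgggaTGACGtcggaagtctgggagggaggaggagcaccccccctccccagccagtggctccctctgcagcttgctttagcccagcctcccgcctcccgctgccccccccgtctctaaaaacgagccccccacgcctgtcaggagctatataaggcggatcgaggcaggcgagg
Fos: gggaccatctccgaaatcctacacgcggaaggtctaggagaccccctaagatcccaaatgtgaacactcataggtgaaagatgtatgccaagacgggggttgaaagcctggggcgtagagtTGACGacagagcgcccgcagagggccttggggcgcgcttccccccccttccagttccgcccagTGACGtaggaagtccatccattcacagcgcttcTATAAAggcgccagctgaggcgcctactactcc
Egr2: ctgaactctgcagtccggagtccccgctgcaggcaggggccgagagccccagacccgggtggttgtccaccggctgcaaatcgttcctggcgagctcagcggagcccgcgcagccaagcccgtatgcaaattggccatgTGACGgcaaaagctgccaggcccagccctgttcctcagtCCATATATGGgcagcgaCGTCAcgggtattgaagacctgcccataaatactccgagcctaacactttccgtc
Dusp1: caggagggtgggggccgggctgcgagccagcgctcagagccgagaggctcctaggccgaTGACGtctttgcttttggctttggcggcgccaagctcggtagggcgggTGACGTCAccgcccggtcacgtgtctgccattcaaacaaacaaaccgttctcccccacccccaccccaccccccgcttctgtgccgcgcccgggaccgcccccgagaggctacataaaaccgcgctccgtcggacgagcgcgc
Npas4 held TGACG 2 times, 179 to 175 bases before the start on the opposite strand and 169 to 165 bases before it on the gene's own strand. Fos held it 2 times together with TATAAA at 33 to 28 bases before the start. Egr2 held it 2 times beside a CArG box at 72 to 63 bases before the start shown. Of its other windows, that from chr10:67535249 held none of the marked letters, and that from chr10:67537316 held a CArG box without TGACG. Dusp1 held the whole element, which reads as TGACG on both strands, and a further TGACG at 191 to 187 bases. Among the activity-induced transcription factors below, 13 of the 17 with a window held TGACG on either strand, against 29.4% of the 10603 tested genes with a window and 17.8% of all 32851 windows. Of the same 17 genes, 1 held the whole TGACGTCA (Maff) and 1 the CArG box (Egr2), against 2.91% and 1.41% of the tested genes with a window. The whole TGACGTCA was in 1.55% of all windows and the CArG box in 1.47%. A match describes the letters in the window and not a bound site, and which genes hold these letters was not compared with their response to ethanol.

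Npas4, a transcription factor of neurons that responds to depolarisation and calcium, was at 6.40, 6.31 and 6.39 on the saline arrays and at 7.48, 7.42 and 7.70 on the ethanol arrays. The lowest ethanol pool lay above the highest saline pool by more than the range within either group. The difference was 1.17 (SE 0.15, adjusted p = 0.0141), a fold of 2.24 (95% interval 1.80 to 2.80). The difference stayed between 1.08 and 1.23 when any 1 of the 6 arrays was left out. The adjusted p did not stay below 0.05: it was 0.0576, 0.183 and 0.118 when the saline array numbered 1, 2 or 3 was dropped. It was 0.0308, 0.0600 and 0.184 when an ethanol array was dropped, in the same order, and 0.168 in a fit of all 66 arrays. Ethanol raised Npas4 in the BXD arrays as well, by 0.84 (SE 0.08), with 24 of 27 strains higher, and the DBA/2J difference was 1.04 (SE 0.15).

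Npas4 belongs to a list of 26 activity-induced transcription factors, of which 24 were measured. Npas4 was the only one to pass, 6 were higher at an unadjusted p below 0.05 and 0 were lower, against 2.17% and 2.81% of all genes. Of the 24 differences 19 were above 0 (79.2%), against 41.3% of all genes, and the median was 0.05 against -0.02. Without saline replicate 2 the median was 0.01, and without saline replicate 3 it was 0.11.

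Fos, the AP-1 subunit most used as a marker of active neurons, was at 8.33, 8.04 and 8.17 after saline and at 8.79, 8.97 and 8.82 after ethanol. The groups did not overlap, and the difference was 0.68 (SE 0.14, adjusted p = 0.498). Egr2, a zinc-finger factor of the early growth response family, was at 5.50, 5.39 and 5.19 after saline and at 5.94, 6.24 and 6.21 after ethanol, a difference of 0.77 (SE 0.16, adjusted p = 0.498). A second Egr2 probe set, nearer the filter level, gave 0.43. Neither gene passed over all 13196 genes in the fit with DBA/2J, and both passed, with Npas4, when the 6 C57BL/6J arrays were fitted alone.

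The orphan nuclear receptor Nr4a1 was at 9.86, 9.74 and 9.85 after saline and at 10.16, 10.42 and 10.00 after ethanol, again without overlap (difference 0.38, SE 0.12, adjusted p = 0.922). Klf4, a Krüppel-like factor, was also apart, at 5.82 to 5.96 after saline and 6.17 to 6.48 after ethanol (0.39, SE 0.15). Junb, the other AP-1 subunit at an unadjusted p below 0.05, did overlap: it was at 7.0, 6.96 and 7.21 after saline and at 7.53, 7.78 and 7.09 after ethanol (0.41, SE 0.17). These 3 genes did not pass.

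The remaining members of the same families stayed near their saline levels. Egr1 differed by 0.05 (SE 0.09), Egr3 by 0.13 (SE 0.10) and Egr4 by 0.04 (SE 0.13), and the arrays overlapped for each. Fosb differed by 0.02 (SE 0.15), Jun by 0.13 (SE 0.14), Nr4a2 by -0.05 and Nr4a3 by -0.05. These standard errors were no larger than that of Npas4. Fosl2, a slower AP-1 subunit, lay lower on all 3 ethanol arrays (7.49 to 7.62 after saline, 7.12 to 7.44 after ethanol), with a difference of -0.25 and an unadjusted p of 0.063. The family split is a description, since the difference between family members was not tested.

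**Figure D2:**
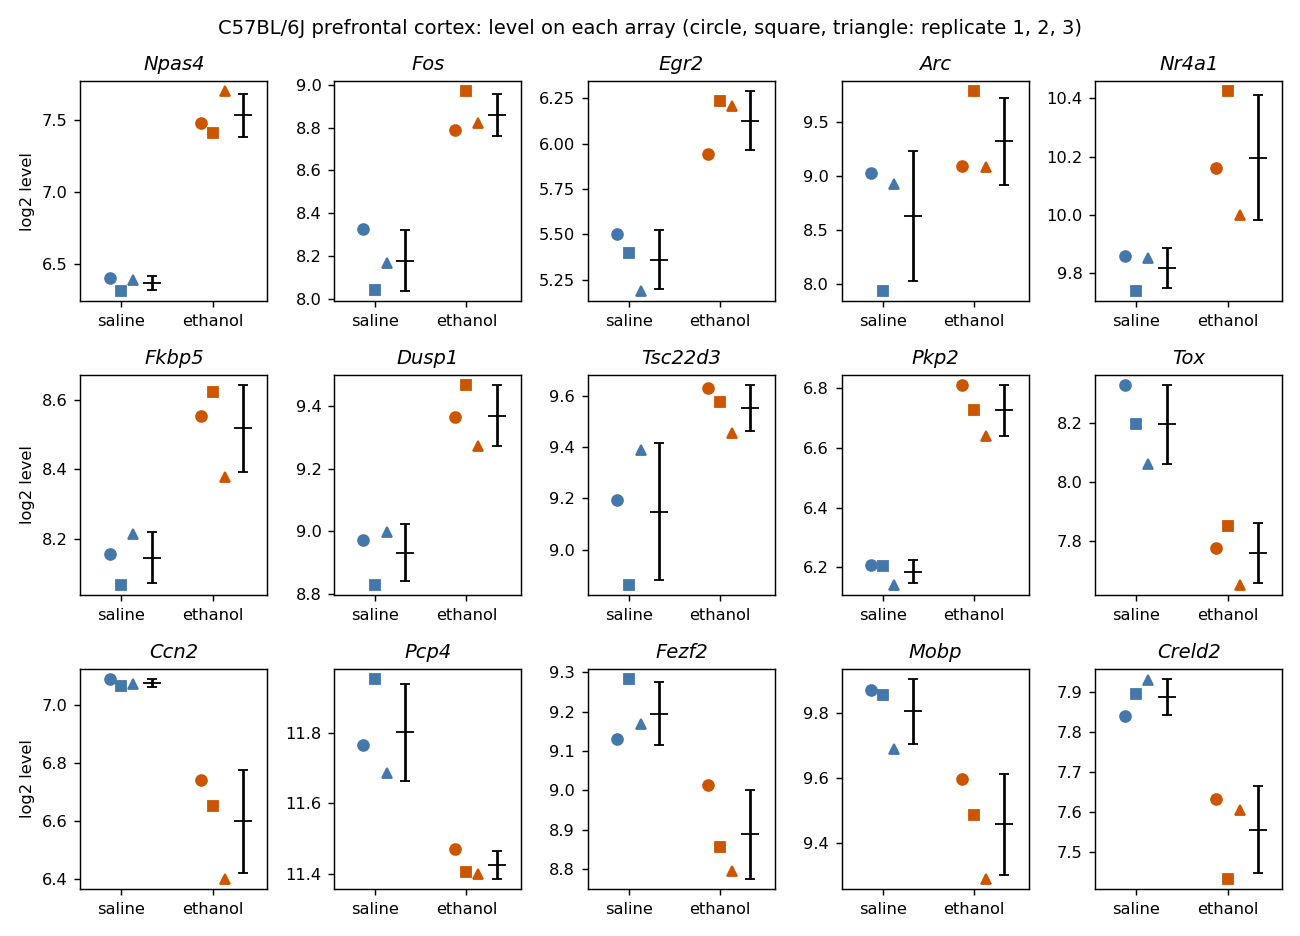
Log2 level of 15 genes on each of the 6 C57BL/6J arrays (y axis, a separate scale per gene), with saline in blue and ethanol in orange, the replicate given by the marker, and the mean and SD of the 3 arrays in black. Npas4 moved from near 6.4 to above 7.4, and the deep-layer gene Pcp4 and the myelin gene Mobp lay lower on every ethanol array.

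Activity-induced effectors were listed as 23 genes, 7 synaptic, 6 secreted and 10 of signalling, and 21 were measured. At an unadjusted p below 0.05, 3 were higher and 1 lower, against 2.17% and 2.81% of all genes, 0 passed, and the median was -0.02 (0.00 after repeated quantile normalization). Arc, which trims surface AMPA receptors, was at 9.03, 7.93 and 8.92 after saline and at 9.09, 9.78 and 9.08 after ethanol. The ethanol arrays lay above the saline arrays by a narrow margin, and the size came from 1 low saline pool and 1 high ethanol pool. The difference of 0.69 (SE 0.26, adjusted p = 0.922) became 0.34 without saline replicate 2. Btg2, an antiproliferative gene that activity also induces, was higher by 0.46 (SE 0.13) without overlap, and a second probe set gave 0.29. Tiparp, a mono-ADP-ribosyltransferase, was higher by 0.20 (SE 0.08).

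Other effectors did not follow. Nptx2, a secreted pentraxin that clusters AMPA receptors, was lower by 0.34 on the log2 scale (difference -0.34, SE 0.15), with overlapping arrays, and a dimmer probe set gave -0.07. The neurotrophin gene Bdnf was at 9.28, 9.32 and 9.34 after saline and at 9.21, 9.34 and 9.08 after ethanol, a difference of -0.10 (SE 0.09). Homer1 differed by 0.08, Nrn1 by -0.04 and Plk2 by 0.04. The 18 measured MAP kinase feedback inhibitors were spread around 0, with a median of 0.03. At an unadjusted p below 0.05, 1 was higher, the MAP kinase phosphatase Dusp1, and 1 lower (Spred3, -0.24, SE 0.10). Over all genes these shares were 2.17% and 2.81%.

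The saline pool numbered 2 stood apart for these genes. It was the lowest of the 6 arrays for 13 of the 24 activity-induced transcription factors (54.2%), against 17.3% of all genes, and for 6 of the 21 effectors. Ethanol replicate 2 was the highest for 9 of the 24 factors and for 11 of the 21 effectors, against 17.4% of all genes. These counts were made after the values were seen. Without saline replicate 2 the difference of Fos was 0.61, its lowest value over the arrays left out. That of Npas4 was 1.14.

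Glucocorticoid-responsive genes were listed as 28 and 26 were measured. None passed, and 5 were higher at an unadjusted p below 0.05 and 0 lower, against 2.17% and 2.81% of all genes. Of the differences, 19 of 26 were above 0 (41.3% of all genes), and the median was 0.09 against -0.02. Ethanol replicate 2 was the highest of the 6 arrays for 13 of the 26 genes, against 17.4% of all genes. The mean level of the list was 8.41, 8.42 and 8.53 on the saline arrays and 8.57, 8.57 and 8.498 on the ethanol arrays, so the groups overlapped. Leaving out single arrays moved the median between 0.05 (without saline replicate 1) and 0.10.

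Fkbp5, the co-chaperone through which the receptor restrains itself, was at 8.16, 8.07 and 8.21 after saline and at 8.55, 8.62 and 8.38 after ethanol. The groups were apart and the difference was 0.37 (SE 0.09, adjusted p = 0.766), with 0.38 from a second probe set. Dusp1, which is also an early gene of MAP kinase signalling, was at 8.97, 8.83 and 9.0 after saline and at 9.37, 9.47 and 9.27 after ethanol (0.44, SE 0.11, adjusted p = 0.828). Tsc22d3, which encodes the leucine zipper protein GILZ, was at 9.19, 8.86 and 9.39 after saline and at 9.63, 9.58 and 9.45 after ethanol (0.41, SE 0.13, adjusted p = 0.922). Its groups were separated by a small gap, its difference was 0.26 without saline replicate 2, and its other measured probe sets gave 0.26 and 0.12.

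The sulfotransferase Sult1a1 was higher by 0.31 (SE 0.10) without overlap, and the metallothionein Mt2 by 0.23 (SE 0.11) with overlap. Fam107a was apart with a difference of 0.08. Other classic targets did not share the direction or the size: Sgk1, a kinase of ion channel traffic, was at 8.78, 8.71 and 8.68 after saline and at 8.71, 8.36 and 8.47 after ethanol (-0.21, SE 0.10), and the clock gene Per1 overlapped (0.21, SE 0.12). Klf9 differed by 0.02 and Zbtb16 by -0.02. The receptors and ligands of the stress axis gave 0 of 9 genes at an unadjusted p below 0.05, with the glucocorticoid receptor gene Nr3c1 at -0.07 and Crh at 0.12.

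Of the genes with the smallest p whose arrays did not overlap, 12 were higher, and after Npas4 none passed. Pkp2, a plakophilin of desmosomes and cell junctions, was second over all genes. It was at 6.21, 6.21 and 6.14 after saline and at 6.81, 6.73 and 6.64 after ethanol, a difference of 0.54 (SE 0.10, adjusted p = 0.413). Its other probe sets differed from this one: those above the filter gave 0.19 and 0.04. The 14 measured genes of desmosomes, tight and gap junctions had a median of 0.05. Pkp2 was the 1 at an unadjusted p below 0.05, against 2.17% of all genes higher.

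The rest of the 12 were Fam71e1 (0.31, and 0.11 on a dimmer probe set), Smr2 (0.36), Fam24b (0.36), the adhesion gene Mpzl2 (0.46), AI661453 (0.44) and the peptide gene Adm2 (0.29), beside Egr2, Fos, Fkbp5 and Dusp1. These 6 had low levels, with saline means between 4.89 for Fam24b and 5.96 for Fam71e1, close to the filter. The saline means of Fam24b and Mpzl2 (4.97) lay below the filter level of 5.10, which was applied to the mean over 66 arrays. Adjusted p lay between 0.413 and 0.828 for all of the 11 that did not pass. Smim3, a small membrane protein gene (0.39, SE 0.14), and Afm, a vitamin E carrier gene (0.39, SE 0.11), entered by the size of the difference.

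Among genes lower after ethanol, 0 passed at an adjusted p below 0.05. The smallest p belonged to Tox, an HMG-box factor. Tox was at 8.33, 8.20 and 8.06 after saline and at 7.78, 7.85 and 7.65 after ethanol, so that the groups were apart. The difference was -0.44 (SE 0.09, adjusted p = 0.498), and both other probe sets were also lower, by -0.25 and -0.37. Cap1, an actin-binding protein, had the largest lower difference among genes whose arrays did not overlap. It was at 7.08, 7.54 and 7.90 after saline and at 6.99, 6.90 and 6.66 after ethanol (-0.65, SE 0.15, adjusted p = 0.766). The saline pools alone ranged over more than the distance between the groups' nearest arrays. Cap1 passed without saline replicate 1, at -0.87, and not with all arrays.

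The zinc-finger genes Zfp661 (-0.48, SE 0.11) and Zfp551 (-0.49, SE 0.12), the RNA-processing gene Frg1 (-0.48, SE 0.13) and the noncoding RNA Dleu2 (-0.37, SE 0.09; -0.11 on a dimmer probe set) followed. The myosin light chain gene Myl4 was lower by 0.42 on the log2 scale (-0.42, SE 0.10), and its dimmer probe set gave 0.11. Igsf21, a synaptic adhesion gene, differed by -0.32 and the sodium channel subunit gene Scn4b by -0.38. Oard1 (-0.35), the cyclin gene Ccnk (-0.40) and Pgm3 (-0.37), an enzyme of amino sugar synthesis, complete the lower genes named by rank or size, none of which passed.

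Of the 16 measured markers of cortical excitatory neurons, 4 were lower at an unadjusted p below 0.05 and 0 higher, against 2.81% and 2.17% of all genes. Of the 16 differences, 7 were above 0 and 9 below, and the median was -0.05 against -0.02 for all genes. The 4 lower genes are known for the deep layers. Ccn2, a secreted matrix protein of the deepest cortical neurons, was at 7.09, 7.06 and 7.07 after saline and at 6.74, 6.65 and 6.40 after ethanol (-0.48, SE 0.10, adjusted p = 0.761). Pcp4, a calmodulin-binding protein, was at 11.77, 11.95 and 11.69 after saline and at 11.47, 11.40 and 11.40 after ethanol (-0.38, SE 0.09, adjusted p = 0.766). Fezf2, the factor that specifies subcortical projection neurons, was at 9.13, 9.28 and 9.17 after saline and at 9.01, 8.86 and 8.80 after ethanol (-0.31, SE 0.10, adjusted p = 0.922). For these 3 genes the groups did not overlap.

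Tle4, a corepressor of layer 6 neurons, was at 8.56, 8.37 and 8.18 after saline and at 8.22, 7.76 and 8.06 after ethanol, with overlap (-0.36, SE 0.13). Foxp2 differed by -0.37 (SE 0.19) and Bcl11b by -0.21 (SE 0.12), both with overlap. Other deep-layer genes did not share these values: Tbr1, a factor of layer 6 neurons, differed by 0.03, Syt6 by -0.09 and Nr4a2 by -0.05. Of upper-layer genes, Cux2 differed by 0.06, Cux1 by -0.04, Rorb by 0.05, Lamp5 by 0.06 and Rasgrf2 by 0.05, and the general markers Slc17a7 and Neurod6 differed by 0.03 and 0.04. The division into layers was made after the values were seen and was not tested. In bulk tissue, fewer cells of a type and less RNA per cell cannot be told apart.

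Markers of the neighbouring striatum were read as a check of the dissection. Of the 9 measured, 0 passed and Drd1 was lower at an unadjusted p below 0.05 (-0.40, SE 0.14; 6.57, 6.36 and 6.17 after saline, 6.18, 5.97 and 5.73 after ethanol, with overlap), and a second probe set gave -0.12. Drd1 is also made in deep cortical layers. The other striatal genes ranged from -0.11 to 0.13, and 2.81% of all genes were lower at an unadjusted p below 0.05. Their part in the deep-layer values was not tested.

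Myelin and mature oligodendrocyte markers lay lower after ethanol in C57BL/6J. Of 28 listed genes 23 were measured and 0 passed. At an unadjusted p below 0.05, 5 were lower and 0 higher, against 2.81% and 2.17% of all genes. Of the 23 differences 19 were below 0, against 7745 of all 13196 genes, and the median was -0.12. Mobp, a structural protein of compact myelin, was at 9.87, 9.86 and 9.69 after saline and at 9.60, 9.49 and 9.29 after ethanol. The groups were apart (-0.35, SE 0.10, adjusted p = 0.922), and of its other probe sets above the filter 2 gave -0.27 and -0.41 and 1 gave 0.01.

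Ermn, a cytoskeletal protein of mature oligodendrocytes, differed by -0.35 (SE 0.13), the receptor gene Gpr37 by -0.33 (SE 0.10), Aspa, which makes acetate for myelin lipids, by -0.24 (SE 0.11), and Bcas1 by -0.21 (SE 0.10). Of these, Bcas1 alone had arrays that did not overlap. Mbp, a main structural protein of myelin, was at 12.63, 12.47 and 12.58 after saline and at 12.55, 12.40 and 12.19 after ethanol, with overlap (-0.18, SE 0.10). Ethanol replicate 3 was the lowest of the 6 arrays for 10 of the 23 genes (43.5%), against 24.7% of all genes, and saline replicate 1 the highest for 10. Without ethanol replicate 3 the list's median was -0.06, and after repeated quantile normalization it was -0.07. Precursor markers did not share this, with a median of 0.04 over 6 genes.

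Markers of the meninges and of fibroblasts, membranes that cover the medial wall of the cortex, lay higher. All 20 listed genes were measured and 0 passed. At an unadjusted p below 0.05, 4 were higher and 0 lower, against 2.17% and 2.81% of all genes, and 6 had ethanol arrays above all saline arrays, against 3.78%. Of the 20 differences 16 were above 0, against 41.3% of all genes, and the median was 0.15. The proteoglycan gene Ogn was at 7.49, 7.61 and 7.48 after saline and at 7.80, 7.74 and 7.77 after ethanol (0.24, SE 0.09). The proline transporter gene Slc6a20a was at 7.61, 8.00 and 7.93 after saline and at 8.16, 8.16 and 8.18 after ethanol (0.32, SE 0.13). Islr (0.26, SE 0.12), the anion transporter gene Slc13a4 (0.22, SE 0.10) and the growth factor gene Igf2 (0.28, SE 0.14) had the same direction without overlap.

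These values rested on particular pools. Saline replicate 1 was the lowest array for 14 of the 20 genes (70.0%), against 10.8% of all genes, and ethanol replicate 2 the highest for 13 (65.0%), against 17.4%. The mean level of the list was 7.34, 7.51 and 7.61 on the saline arrays and 7.57, 7.75 and 7.57 on the ethanol arrays, so the groups overlapped. Without saline replicate 1 the median was 0.08. The collagen genes Col1a1 and Col3a1 differed by -0.02 and -0.03. How much membrane tissue each pool held, and its part in the other results, was not tested.

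Markers of the remaining cell types gave little. Astrocyte markers had a median of 0.02 over 16 genes with 0 at an unadjusted p below 0.05, and inhibitory neuron markers -0.01 over 15 with 0. Microglia markers had a median of -0.05 with 2 of 15 lower, Cx3cr1 (-0.30, SE 0.13) and Ly86 (-0.21, SE 0.09), against 2.81% of all genes. Among 19 endothelial and mural genes, 1 was higher, the glucose transporter gene Slc2a1 (0.22, SE 0.08), and 1 lower, Emcn (-0.32, SE 0.11). Over all genes these shares were 2.17% and 2.81%. Of the blood cell list 3 of 7 genes were measured, with differences between -0.18 and 0.14.

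**Figure D3:**
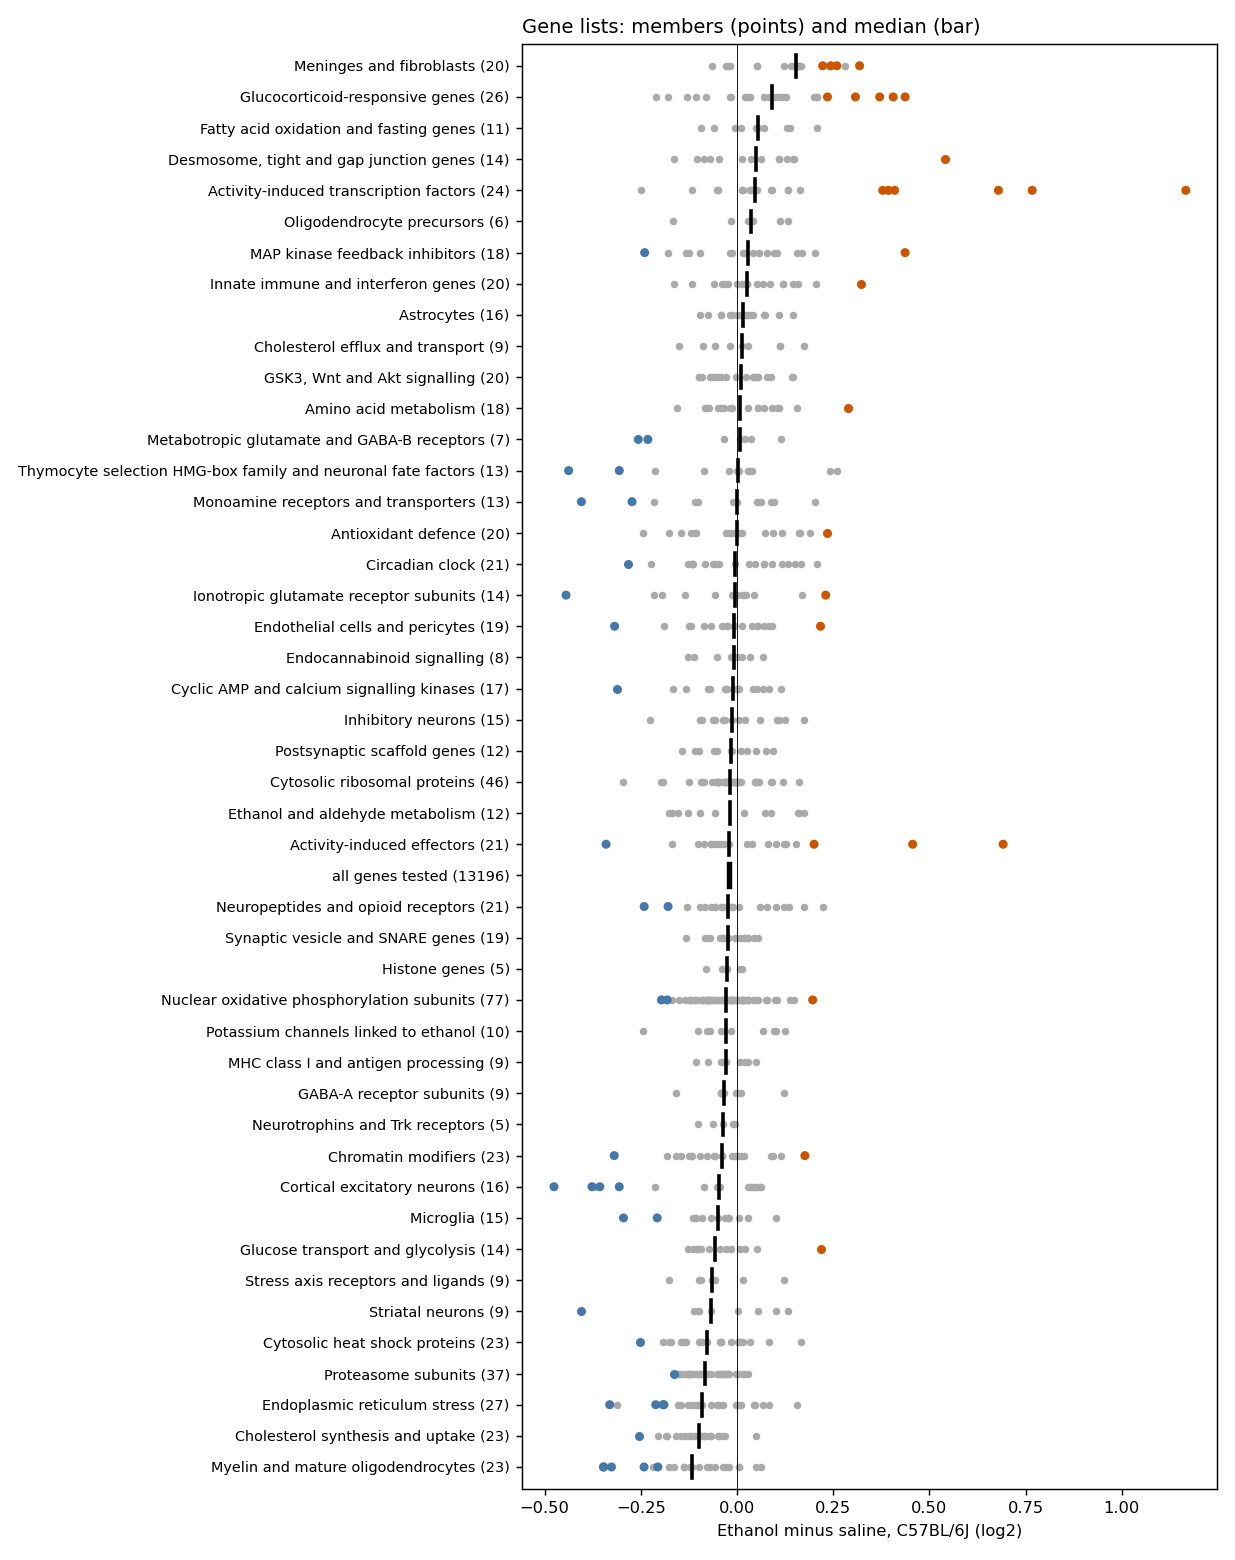
Ethanol minus saline in C57BL/6J (x axis, log2) for the measured members of each gene list (points, with their number in brackets) and the list's median (bar), ordered by median; coloured points have an unadjusted p below 0.05. Meningeal markers sit at the top with a median of 0.15 and myelin markers at the bottom with -0.12, and Npas4 is the point at 1.17.

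Several housekeeping pathways had medians below that of all genes by small amounts, and few of their members had an unadjusted p below 0.05. These lists were bright, with median levels from 8.13 (cholesterol) to 11.67 (ribosomal), against 7.60 over all genes. In the third and the brightest of the 4 bins by level, 2344 and 2360 of 3299 genes lay below 0, with medians of -0.05 and -0.04. The medians of oxidative phosphorylation and ribosomal genes were not below these. Of 23 measured genes of cholesterol synthesis and uptake, 22 differed downwards, against 7745 of all 13196 genes, and the median was -0.10. None passed, and 1 was lower at an unadjusted p below 0.05, near the 2.81% of all genes. That was Fdps, which makes farnesyl diphosphate: it was at 9.45, 9.57 and 9.43 after saline and at 9.22, 9.22 and 9.25 after ethanol (-0.25, SE 0.07, adjusted p = 0.922). Idi1 (-0.18) and Msmo1 (-0.10) were also apart. Hmgcs1, which opens the pathway, differed by -0.20 and the regulators Srebf1 and Srebf2 by -0.13 and -0.10.

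Genes of the endoplasmic reticulum stress response had a median of -0.09 over 27, with 4 lower at an unadjusted p below 0.05 and 0 higher, against 2.81% and 2.17% of all genes. Creld2, a chaperone-like protein secreted under stress of this organelle, was at 7.84, 7.89 and 7.93 after saline and at 7.63, 7.43 and 7.60 after ethanol (-0.33, SE 0.08, adjusted p = 0.766). The sensor kinase gene Eif2ak3 differed by -0.21 (SE 0.09), and the disulfide isomerase Pdia6 and Herpud1 by -0.19 each, without overlap. A second Herpud1 probe set gave -0.02. Sdf2l1 differed by -0.31 and the main chaperone Hspa5 by -0.15, with unadjusted p of 0.0973 and 0.123. The transcription factor gene Atf4 differed by -0.00 and its target Asns by 0.00. Without ethanol replicate 3 the median of the list was -0.03.

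Cytosolic heat shock proteins had a median of -0.08 over 23 genes, with Chordc1, a partner of Hsp90, the 1 lower at an unadjusted p below 0.05 (-0.25, SE 0.09). Proteasome subunits had a median of -0.08, with 33 of 37 below 0 and Psmd14, the deubiquitinating subunit of the lid, the 1 at an unadjusted p below 0.05 (-0.16, SE 0.07). Over all genes 7745 of 13196 lay below 0, and 1 in 37 is near the 2.81% called lower. Nuclear genes of oxidative phosphorylation had a median of -0.03 over 77. At an unadjusted p below 0.05, Ndufs1 (-0.18) and Ndufs7 (-0.20, and -0.02 on its other probe set) were lower and Cox8c (0.20) higher. These counts of 2 and 1 in 77 stand against 2.81% and 2.17% of all genes. Cytosolic ribosomal protein genes had a median of -0.02 over 46, with 0 at an unadjusted p below 0.05.

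On some arrays the difference from saline also moved with the level of a gene, and its part in these medians was not tested. With the genes cut by level into 4 bins of 3299, the median difference was 0.04 in the dimmest bin and -0.01, -0.05 and -0.04 in the bins above it. Against the saline mean, the dimmest bin stood at 0.07 on ethanol replicate 2 and 0.08 on replicate 3, and the third bin at -0.05 and -0.07. On ethanol replicate 1 all bins lay between -0.03 and -0.01. The SD of log2 values over all probe sets was 2.11 and 2.09 on ethanol replicates 2 and 3, and 2.14 to 2.15 on the other 4 arrays. After quantile normalization was repeated, the 4 bins stood at 0.02, 0.01, 0.00 and -0.00, and the unadjusted counts became 316 higher and 235 lower in place of 286 and 371. With each array centred on its median they became 183 and 539. The medians of cholesterol, endoplasmic reticulum stress, heat shock and proteasome genes moved to -0.05, -0.04, -0.05 and -0.05 after the repeat, while those of glucocorticoid-responsive and meningeal genes were 0.11 and 0.16.

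**Figure D4:**
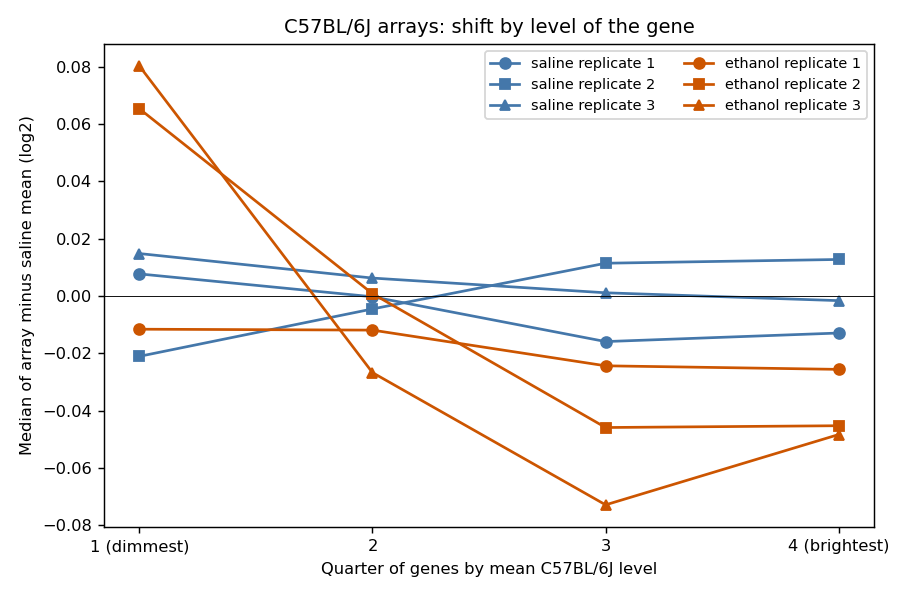
Median over genes of each C57BL/6J array minus the mean of the saline arrays (y axis, log2) in 4 bins of the 13196 genes by level (x axis, dimmest to brightest). Ethanol replicates 2 and 3 slope from 0.07 and 0.08 in the dimmest bin to about -0.05 in the brightest, and ethanol replicate 1 and the saline arrays stay within 0.03 of 0.

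Genes for the direct targets of ethanol gave few values beyond the spread. Of 13 listed GABA-A receptor subunits 9 were measured, 0 had an unadjusted p below 0.05, and the differences ran from -0.16 for Gabra5 to 0.12 for Gabra4, while Gabra2 was at 7.87, 7.84 and 7.62 after saline and at 7.86, 7.53 and 7.81 after ethanol (-0.04, SE 0.11), and its other probe sets above the filter gave -0.05 and -0.25. Of 14 ionotropic glutamate receptor subunits, Grik2 was higher (0.23, SE 0.09, without overlap; -0.04 on its other probe set above the filter) and the NMDA receptor subunit gene Grin2a lower (-0.44, SE 0.21) with arrays that overlapped between 4.85 and 6.08. The metabotropic receptor genes Grm3 (-0.23, SE 0.09) and Grm8 (-0.26, SE 0.12) were lower at an unadjusted p below 0.05. Potassium channels linked to ethanol gave 0 of 10, with Kcnj9 at -0.24 (SE 0.12) and its other probe sets above the filter between -0.24 and 0.17. None of these passed, and over all genes 2.17% were higher and 2.81% lower at an unadjusted p below 0.05.

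Monoamine receptors and transporters gave 2 of 13 lower at an unadjusted p below 0.05, Drd1 and the adrenergic receptor gene Adra1b (-0.27, SE 0.11). Over all genes 2.81% were lower and 2.17% higher at that threshold, here and for the lists that follow. Neuropeptides and opioid receptors gave 2 of 21 lower, the somatostatin receptor genes Sstr2 (-0.24, SE 0.09) and Sstr4 (-0.18, SE 0.08), both without overlap. Genes of ethanol and aldehyde metabolism gave 0 of 12 and a median of -0.02, and endocannabinoid genes 0 of 8. The GSK3, Wnt and Akt list gave 0 of 20. Gsk3b, a kinase inhibited by insulin and Wnt signals, differed by 0.08 (SE 0.09) on its brightest probe set and by -0.73 on its most variable one, so its probe sets disagreed in direction. Creb1, the gene of a factor known to bind TGACGTCA, differed by -0.31 (SE 0.14) with overlap, and its other probe sets above the filter by -0.09 to -0.06.

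In the remaining lists few members had an unadjusted p below 0.05, against 2.17% of all genes higher and 2.81% lower. Cd14, a co-receptor for lipopolysaccharide, was at 5.95, 6.06 and 6.06 after saline and at 6.49, 6.28 and 6.27 after ethanol (0.32, SE 0.09), the 1 of 20 innate immune and interferon genes at an unadjusted p below 0.05. Of 23 chromatin modifiers the demethylase gene Kdm6b was lower (-0.32, SE 0.10; -0.05 on its other probe set above the filter) and the deacetylase gene Hdac1 higher (0.18, SE 0.07). Of 21 clock genes the kinase gene Csnk1e was lower (-0.28, SE 0.10; 0.01 on its other probe set above the filter), and of 18 genes of amino acid metabolism Aass, which breaks down lysine, was higher (0.29, SE 0.08). Synaptic vesicle and SNARE genes gave 0 of 19 and postsynaptic scaffold genes 0 of 12.

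The same genes were then read in the other arrays, none of which enters the C57BL/6J differences. The DBA/2J arrays did enter the estimate of spread behind the p that ranked these genes. In DBA/2J 0 genes passed and 1643 had an unadjusted p below 0.05 (12.5%), and in the BXD arrays Npas4 passed (0.00758%) and 651 had an unadjusted p below 0.05 (4.93%). Npas4, Fos and Egr2 had like values in the progenitors: Fos differed by 0.68 in C57BL/6J, 0.78 in DBA/2J and 0.46 in the BXD strains (21 of 27 higher), and Egr2 by 0.77, 0.84 and 0.41 (20 of 27 higher). Arc differed by 0.69, 0.59 and 0.45, Fkbp5 by 0.37, 0.28 and 0.16, and Dusp1 by 0.44, 0.25 and 0.28. Pkp2 differed by 0.54, 0.45 and 0.07, and Tox by -0.44, -0.44 and -0.01, so that these 2 genes had like values in the progenitors and not in the BXD strains. Of the 12 higher genes of smallest p, 10 had the same sign in DBA/2J and 10 in the BXD arrays. Of the 12 lower genes it was 9 and 10, and of all genes 49.8% and 57.8%.

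The wider set did not follow the sign in DBA/2J. Of the 286 genes higher at an unadjusted p below 0.05 in C57BL/6J, 49.0% were higher in DBA/2J and 47.2% in the BXD arrays. Of the 371 lower genes, 54.4% were lower in DBA/2J and 74.1% in the BXD arrays. Over all genes, both directions together, the sign was the same for 49.8% in DBA/2J and 57.8% in the BXD arrays. Of the higher genes also at an unadjusted p below 0.05 in DBA/2J, 30 had the same sign and 15 the opposite. For the lower genes it was 17 and 22. At that threshold 1092 of all genes were higher in DBA/2J and 551 lower. In the BXD arrays the counts were 19 and 3 for the higher genes, 32 and 2 for the lower, and 463 and 188 over all genes. These counts were not tested. The median difference over all genes was 0.003 in DBA/2J and -0.010 in the BXD arrays, where more genes thus lay below 0 than above. The part of that shift in the 74.1% was not tested. The tissue markers differed in sign or size between the sets, which was not tested for the lists: meningeal genes had medians of 0.15 in C57BL/6J, -0.06 in DBA/2J and -0.03 in the BXD arrays, myelin genes -0.12, 0.03 and -0.02, Ccn2 -0.48, -0.11 and -0.00, and Pcp4 -0.38, -0.06 and -0.05.

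Whether the C57BL/6J response differed from that of DBA/2J was tested as an interaction. No gene passed (0 of 13196; smallest adjusted p = 0.556), and 1097 had an unadjusted p below 0.05 (8.31%). For Npas4 the DBA/2J response minus the C57BL/6J response was -0.13 (SE 0.21), for Egr2 0.07 (SE 0.22), for Fos 0.10 (SE 0.20) and for Fkbp5 -0.09 (SE 0.12). Of the 12 higher and 12 lower genes of smallest p, 6 and 10 had an unadjusted interaction p below 0.05, but these genes were ranked on the C57BL/6J difference that enters the interaction. Egr1, level in C57BL/6J, differed by 0.42 in DBA/2J, and the difference between the strains had an unadjusted p of 0.0106 and an adjusted p of 0.563. The low-level gene Mpzl2 went in opposite directions, 0.46 in C57BL/6J and -0.48 in DBA/2J, at an adjusted p of 0.556.

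**Figure D5:**
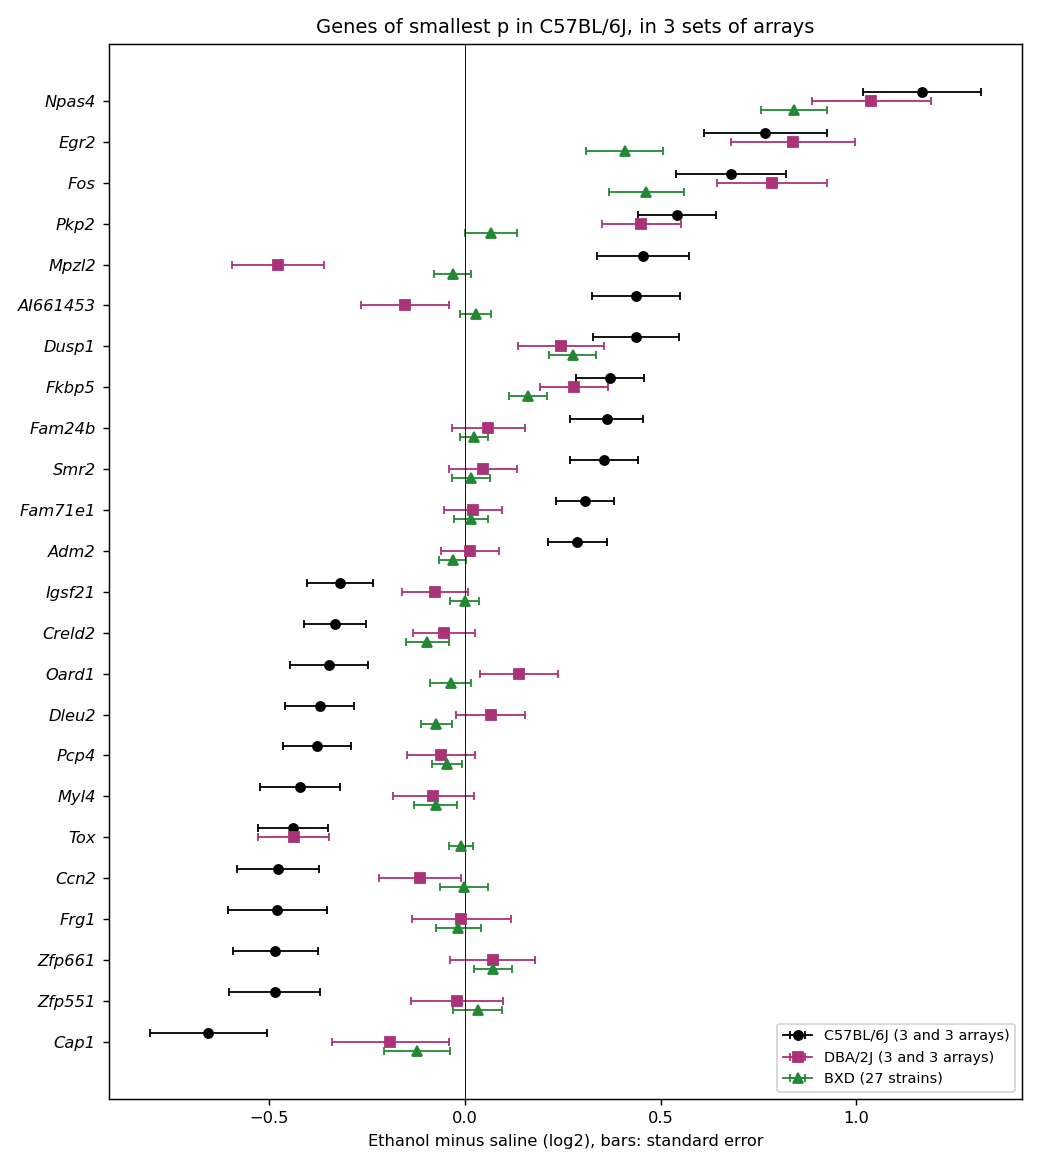
Ethanol minus saline (x axis, log2, with the standard error as bars) of the 24 genes of smallest p in C57BL/6J, in C57BL/6J (circles), DBA/2J (squares) and the BXD strains (triangles). Npas4, Egr2 and Fos lie to the right in all 3 sets, Pkp2 and Tox lie apart from 0 in both progenitors and near 0 in the BXD strains, and most of the lower genes lie near 0 outside C57BL/6J.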

How the data were processed

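The 66 Affymetrix arrays were read as the deposited log2 values, made by the authors with RMA in the affy package, per the submitters' processing notes. Neither versions nor a genome build are stated in the sources read here, and array signals carry no read depth, so the number of arrays limits the precision. Groups came from the array titles. Of 45037 probe sets, 34945 had 1 gene symbol, updated by Entrez ID for 34741. Probe sets below the 40th percentile of the mean over 66 arrays (5.10) were left out, and the brightest probe set stood for a gene.

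Ethanol minus saline in C57BL/6J was fitted with limma 3.58.1 (R 4.3.3; lmFit and eBayes, two-sided) on the 12 arrays of C57BL/6J and DBA/2J as 4 groups, with 8 residual degrees of freedom and Benjamini-Hochberg adjustment over 13196 genes. The strain interaction came from the same fit, and the BXD values from 54 arrays with strain as a block. P-values for interactions, single genes and counts are limma's. The fit was tested on simulated data.

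Named genes were those past the adjusted threshold, the 12 of smallest p and the 12 largest differences in each direction among genes whose arrays did not overlap (the largest also at an unadjusted p below 0.05 with both means above the filter), up to 6 members of each list at an unadjusted p below 0.05 (otherwise the 2 of smallest p), and a fixed set of early, glucocorticoid, myelin and ethanol-related genes. Other list members are named by their known role and were chosen after their values were seen. The members and lists were chosen with earlier results of these data known. Lists were described by counts and medians, with no set test. Filters, probe set choice, scaling, the arrays fitted, the prior, array weights, a replicate block and leaving out each array were varied.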

Additional observations from a re-analysis of the deposited data

How the results depend on the processing

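Across 17 other settings, 6 of them leaving out an array, the 126 named genes gave 2115 differences, of which 2088 kept their direction and their side of the threshold. No named gene but Npas4 passed in the main fit, and most lay far from the threshold. This count therefore cannot show that a call is stable. Npas4 kept its side in 10 of the 17 settings and lost it in 7. It did not pass with all 66 arrays in one fit (adjusted p = 0.168) or with the replicate block (0.0671). Of the leave-out fits (0.0308 to 0.184, difference 1.08 to 1.23), Npas4 passed only in that without ethanol replicate 1. In the other settings it passed with adjusted p from 0.000103 (6 C57BL/6J arrays alone) to 0.0231 (all probe sets). The count of genes past the threshold was 1, and it became 2 with all probe sets (Npas4 and Ighm), 2 with the most variable probe set (Npas4 and Ighm), 3 with the C57BL/6J arrays alone (Npas4, Fos and Egr2), 0 with all 66 arrays (290 higher and 370 lower at an unadjusted p below 0.05), 0 with the replicate block (325 and 365), and 0 to 2 when an array was left out. In the latter, the gene past the threshold was Cap1 alone without saline replicate 1, and Npas4 with Rprm without ethanol replicate 1. The interaction count was 0 in each setting run, and the arrays of C57BL/6J alone cannot give it.

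The labels do not say what a replicate number marks. Same-numbered saline and ethanol arrays correlated in their deviations from the group mean at 0.08, -0.13 and -0.23 in C57BL/6J. In DBA/2J the values were 0.26, 0.12 and 0.06. With 3 such values per strain, whether the numbers mark pools handled together cannot be decided. Differences that changed sign were those of Gsk3b (-0.73) with the most variable probe set; H2ac19 (0.0056), Fosb (-0.00078) and Gabra2 (0.0021) after repeated quantile normalization; and Fosb with median centring (-0.0070) and with array weights (-0.032). With single arrays left out, the ranges that crossed 0 were -0.122 to 0.0602 for Gabra2, -0.145 to 0.0317 for Ngfr, -0.0137 to 0.119 for Ccdc153, -0.175 to 0.112 for Fosb, -0.0709 to 0.164 for Egr4, -0.0122 to 0.0978 for Egr1 and -0.0365 to 0.124 for Clic6. The cause was not tested.

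Arrays of 3 pools per group limit these results: with a median standard error of 0.10, most differences under about 0.5 cannot pass over 13196 genes. Larger differences also failed to pass: Pkp2 at 0.54 (SE 0.10), Fos at 0.68 (SE 0.14) and Egr2 at 0.77 (SE 0.16). A gene that did not pass is not shown to be unaffected.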

Other observations

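Probe sets without a single gene symbol were left out of the comparisons above. Of these, 3823 lay above the filter level. None passed at an adjusted p below 0.05 in the C57BL/6J ethanol effect by limma, 138 were higher at an unadjusted p below 0.05 and 70 were lower.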
